A study of Mus musculus with 6 samples.

Results

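The nectin, afadin and Cadm genes are 7 genes of cell-cell adhesion, listed by name and read from the 23284 gene symbols of the count files: Pvrl1, Pvrl2, Pvrl3 and Pvrl4 (now named Nectin1 to Nectin4), Mllt4 (now Afdn), Cadm1 and Cadm4. All 7 were found and all 7 passed the filter on low counts, which left 13390 genes. The genes were chosen by name within a family, with the read counts of the shCrebbp against control comparison known (Pvrl3 had been called in it), so their values in that comparison are given as a description and support nothing beyond it.

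Poly(A)-selected RNA of preSC cells, a mouse line labelled as a precursor of small cell lung cancer (SCLC), was sequenced in 6 libraries. Every library came from cells with a lentiviral pLKO.1-TRC vector. The 3 shCrebbp libraries each carried a different short hairpin against Crebbp, the gene of the histone acetyltransferase CREB-binding protein (hairpins 1, 2 and 5, 1 library each). Control replicates 1 and 2 carried the empty vector (shEmpty), and control replicate 3 carried a hairpin described as non-silencing (shNS). Nothing in the labels says that libraries came from separate cultures, so p-values reflect only how these libraries scatter, which may be technical and, among shCrebbp libraries, includes differences between hairpins.

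Nectins are immunoglobulin-like membrane proteins that join neighbouring cells without calcium, by binding a nectin of the same or another kind on the facing cell. Inside the cell their tails bind afadin, a scaffold that ties them to actin and helps to bring E-cadherin and catenins to adherens junctions. Cadm proteins (nectin-like molecules) have a similar outer part but do not bind afadin, and attach instead to band 4.1 proteins and membrane-associated guanylate kinases.

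Gene counts ranged from 13622020 to 14651158 reads in shCrebbp libraries and from 13687770 to 19804949 reads in controls, and 1 CPM (a read count scaled to library size) stood for 13.6 to 19.6 reads. Crebbp itself stood at 46.2, 58.3 and 48.9 CPM with hairpins 1, 2 and 5, against 66.2, 69.6 and 69.4 CPM in control replicates 1, 2 and 3, a log2 fold change of -0.42 ± 0.10 (SE) that missed the threshold of 0.05 (edgeR adjusted p = 0.0999). Markers of the labelled cell type were present, with the 7 neuroendocrine genes (among them Chga and Syp) summing to between 2895 and 3845 CPM in shCrebbp libraries and between 3961 and 4299 CPM in controls. The 4 epithelial markers Epcam, Cdh1, Krt8 and Krt18 summed to between 1061 and 1520 CPM in shCrebbp libraries and between 2235 and 2804 CPM in controls. All 4 epithelial genes had lower means in shCrebbp libraries, whereas of the 7 neuroendocrine genes 3 (Calca, Chga and Syp) had lower and 4 (Chgb, Ncam1, Uchl1 and Insm1) higher means. Without Calca, left out after its values were seen, the neuroendocrine sum was 2263, 2763 and 2684 CPM in shCrebbp libraries and 2290, 2380 and 2369 CPM in controls. The part of these markers in the results below was not tested. In bulk RNA, fewer cells of a type and less RNA per cell cannot be told apart. The 5 leukocyte markers summed to at most 5.66 CPM in shCrebbp libraries and 5.91 CPM in controls, and the 4 endothelial markers to at most 1.64 CPM and 1.52 CPM. The 6 fibroblast markers summed to between 12.9 and 63.2 CPM in shCrebbp libraries and between 37.2 and 45.2 CPM in controls, nearly all from Dcn, while Col3a1 had no read in any library. The 4 alveolar and airway markers summed to between 2.04 and 5.27 CPM in shCrebbp libraries and between 4.09 and 6.64 CPM in controls.

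Pvrl3 rose in shCrebbp cells and was the one listed gene that lay higher in every shCrebbp library than in every control. It encodes nectin 3, which pairs preferentially across the cell contact with nectin 1. Pvrl3 stood at 45.2, 45.7 and 48.1 CPM with hairpins 1, 2 and 5, against 31.4, 30.4 and 30.8 CPM in control replicates 1, 2 and 3. The groups lay well apart, and the spread inside each was small: the means were 46.3 ± 1.55 CPM in shCrebbp libraries and 30.8 ± 0.505 CPM in controls (SD, n = 3 each), a 1.50-fold difference. On the log2 scale Pvrl3 was higher by 0.59 ± 0.08 (SE), with a 95% interval of 0.40 to 0.78 (edgeR quasi-likelihood adjusted p = 0.0230 over all genes, rank 55 by p). Each hairpin library contributed a similar difference, with log2 ratios to the control mean of 0.55, 0.57 and 0.64 for hairpins 1, 2 and 5.

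In edgeR the call of Pvrl3 was lost when any 1 control library was left out, while the size of its difference changed little. The call was kept without hairpin 1, 2 or 5 (edgeR adjusted p = 0.0198, 0.0425 and 0.0352). Why the call was lost only without a control was not tested. Without control replicate 1, 2 or 3 the log2 fold change was 0.60, 0.57 and 0.58, and the edgeR adjusted p was 0.154, 0.197 and 0.0943. DESeq2 with the same libraries left out, an alternative chosen after seeing the data, gave adjusted p of 0.00434, 0.0124 and 0.00267.

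**Figure D1:**
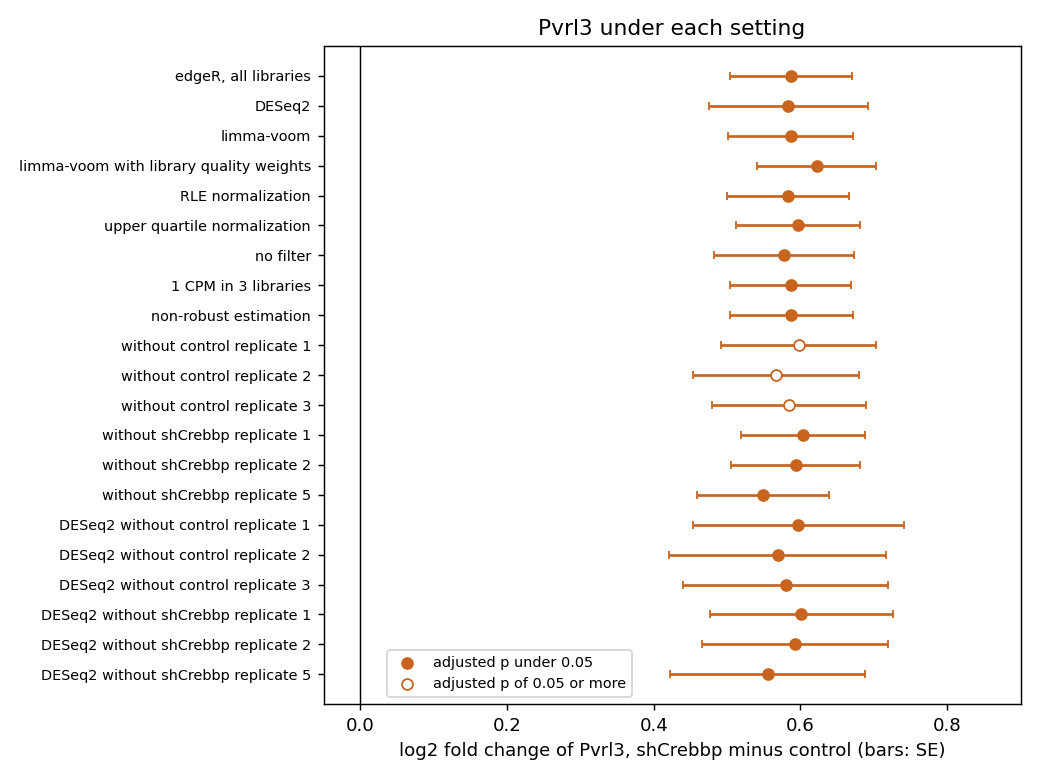
Log2 fold change of Pvrl3 between shCrebbp and control libraries (horizontal axis, bars show the SE) in edgeR with all 6 libraries, shown at the top, and under each of 20 other settings. Filled points passed an adjusted p of 0.05 and open points did not; all values lie between 0.55 and 0.62, and the 3 open points are the edgeR fits without 1 control library.

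The other nectin genes had lower mean values in shCrebbp libraries, and none of them passed the test with all 6 libraries in edgeR. Pvrl1 encodes nectin 1, the preferred partner of nectin 3 and a herpesvirus entry receptor. It stood at 35.9, 24.9 and 24.4 CPM with hairpins 1, 2 and 5, against 39.2, 38.7 and 36.1 CPM in control replicates 1, 2 and 3. Hairpins 2 and 5 lay far below the controls, whereas hairpin 1 lay at the level of the shNS library. Its log2 fold change was -0.42 ± 0.15 (SE; 95% interval -0.78 to -0.07, edgeR adjusted p = 0.226). Without hairpin 1 it was -0.63 and passed (edgeR adjusted p = 0.0239, and DESeq2, chosen after seeing the data, adjusted p = 0.000211). With all 6 libraries it passed in limma-voom with library quality weights (-0.55, adjusted p = 0.0260). These were the only 3 of 20 alternatives to call Pvrl1. It did not pass in edgeR without hairpin 2 or 5 (adjusted p = 0.326 and 0.325). With all 6 libraries it also did not pass in DESeq2 (adjusted p = 0.166) or limma-voom without weights (adjusted p = 0.183). Log2 ratios to the control mean were -0.08, -0.60 and -0.64 for hairpins 1, 2 and 5, a difference between single libraries that was not tested.

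Pvrl2 encodes nectin 2, a broadly expressed nectin. It stood at 31.6, 36.1 and 34.9 CPM with hairpins 1, 2 and 5, against 38.0, 38.7 and 37.6 CPM in control replicates 1, 2 and 3. The shCrebbp libraries all lay below the controls by a narrow margin, and the log2 fold change of -0.16 ± 0.09 did not pass (SE; 95% interval -0.36 to 0.05, edgeR adjusted p = 0.452). Exons of Pvrl2 share bases with Gm20512 on the opposite strand in GENCODE M21, and the strand setting of the counting is not given in the sources used here.

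Pvrl4 encodes nectin 4, an epithelial nectin that binds nectin 1, and was close to the detection limit. It had 13, 15 and 15 reads with hairpins 1, 2 and 5, against 33, 44 and 22 reads in control replicates 1, 2 and 3. In CPM these were 0.955, 1.07 and 1.02 in shCrebbp libraries and 1.69, 2.68 and 1.61 in controls, so that the groups did not overlap but control replicate 2 stood apart from its own group. A log2 fold change of -0.97 ± 0.32 was estimated (SE; 95% interval -1.70 to -0.24), which did not pass (edgeR adjusted p = 0.186). This was the largest estimated change among the 7 genes and also the least precise.

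The reads of the nectin genes summed to nearly the same level in both groups, while their division among the genes differed. The 4 genes together gave 114, 108 and 108 CPM with hairpins 1, 2 and 5, against 110, 110 and 106 CPM in control replicates 1, 2 and 3. Pvrl3 made up 39.8%, 42.4% and 44.4% of these reads in the shCrebbp libraries of hairpins 1, 2 and 5, and 28.5%, 27.5% and 29.0% of them in the 3 controls. The share of Pvrl1 was 31.6%, 23.1% and 22.5% in shCrebbp libraries and 35.5%, 35.0% and 34.0% in controls, in the same order of libraries. These are shares of reads, not of molecules, because the transcripts differ in length. The ratio of Pvrl3 to Pvrl1 reads, which does not depend on library scaling, was 1.26, 1.83 and 1.97 in shCrebbp libraries and 0.801, 0.784 and 0.854 in controls. In controls Pvrl3 thus had fewer reads than Pvrl1 in every library, and in shCrebbp libraries more. The ratio of Pvrl3 to Pvrl2 reads was steadier among hairpins, at 1.43, 1.27 and 1.38 in shCrebbp libraries and 0.825, 0.784 and 0.819 in controls. Both ratios and all of the shares contain Pvrl3, whose difference was known when the genes were listed, so they were not tested. More Pvrl3 reads alone lower the share of Pvrl1. With hairpin 1, Pvrl1 itself stood at 35.9 CPM, against 36.1 CPM in the shNS library.

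**Figure D2:**
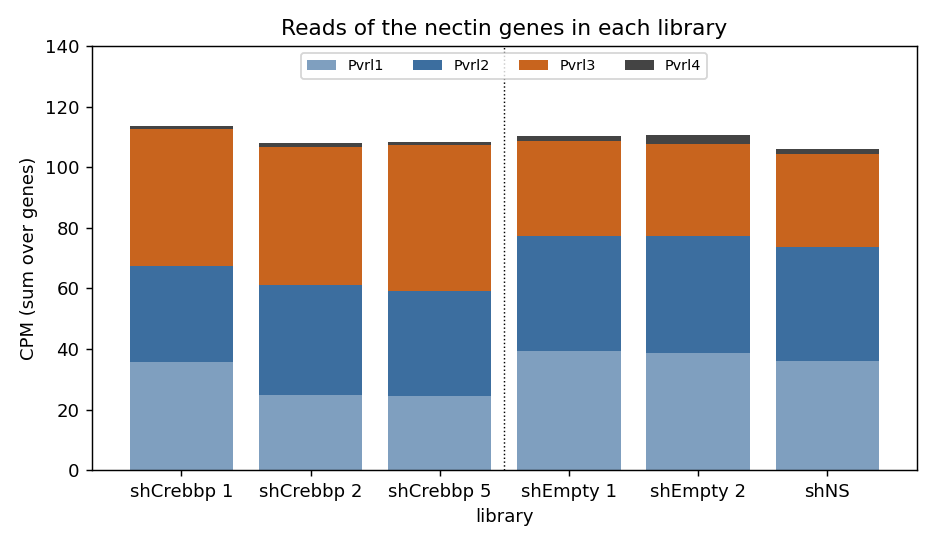
Stacked CPM of Pvrl1, Pvrl2, Pvrl3 and Pvrl4 (vertical axis) in each library, with the 3 shCrebbp libraries left of the dotted line and the 3 controls right of it. The bars reach 106 to 114 CPM in all libraries, while the Pvrl3 part is 45.2 to 48.1 CPM in shCrebbp libraries and 30.4 to 31.4 CPM in controls.

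Mllt4, which encodes afadin, was not called and overlapped between the groups. It stood at 352, 296 and 278 CPM with hairpins 1, 2 and 5, against 276, 266 and 284 CPM in control replicates 1, 2 and 3. Hairpin 1 was highest, hairpin 2 lay just above the controls, and hairpin 5 lay among them. For afadin the log2 fold change was 0.17 ± 0.10 (SE; 95% interval -0.06 to 0.39, edgeR adjusted p = 0.469). Mllt4 shares exon bases with Tcte2 on the opposite strand in GENCODE M21, and whether this affects its counts was not tested. Pvrl3 had 0.128, 0.154 and 0.173 reads per Mllt4 read with hairpins 1, 2 and 5. In control replicates 1, 2 and 3 it had 0.114, 0.114 and 0.108 reads per Mllt4 read.

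Cadm4, a nectin-like adhesion gene, lay below the controls in all 3 shCrebbp libraries, and Cadm1 did so in 2. Cadm4 stood at 145, 125 and 119 CPM with hairpins 1, 2 and 5, against 155, 167 and 158 CPM in control replicates 1, 2 and 3. The log2 fold change of -0.31 ± 0.09 did not pass in edgeR with all 6 libraries (SE; 95% interval -0.52 to -0.09, adjusted p = 0.166). It passed without hairpin 1 (-0.40, edgeR adjusted p = 0.0471, and DESeq2, chosen after seeing the data, adjusted p = 0.00153). It also passed in limma-voom with library quality weights (-0.40, adjusted p = 0.0248). These were the only 3 of 20 alternatives to call Cadm4. It did not pass in edgeR without hairpin 2 or 5 (adjusted p = 0.215 and 0.212). With all 6 libraries it also did not pass in DESeq2 (adjusted p = 0.0718) or limma-voom without weights (adjusted p = 0.158).

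Cadm1, known as a tumour suppressor gene in human lung cancer, stood at 215, 220 and 287 CPM with hairpins 1, 2 and 5, against 319, 275 and 252 CPM in control replicates 1, 2 and 3. Hairpins 1 and 2 lay below the controls, and hairpin 5 lay among them. Cadm1 had an overall log2 fold change of -0.23 ± 0.14 (SE; 95% interval -0.54 to 0.08, edgeR adjusted p = 0.458). The Cadm1 to Cadm4 read ratio overlapped between the groups, at 1.48, 1.77 and 2.42 in shCrebbp libraries and 2.06, 1.65 and 1.60 in controls. By contrast, the groups did not overlap in the ratio of Mllt4 to Cadm4 reads, which was 2.43, 2.38 and 2.34 in shCrebbp libraries and 1.78, 1.59 and 1.80 in controls. Cadm4 alone already lay below the controls in every shCrebbp library, and neither ratio was tested.

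**Figure D3:**
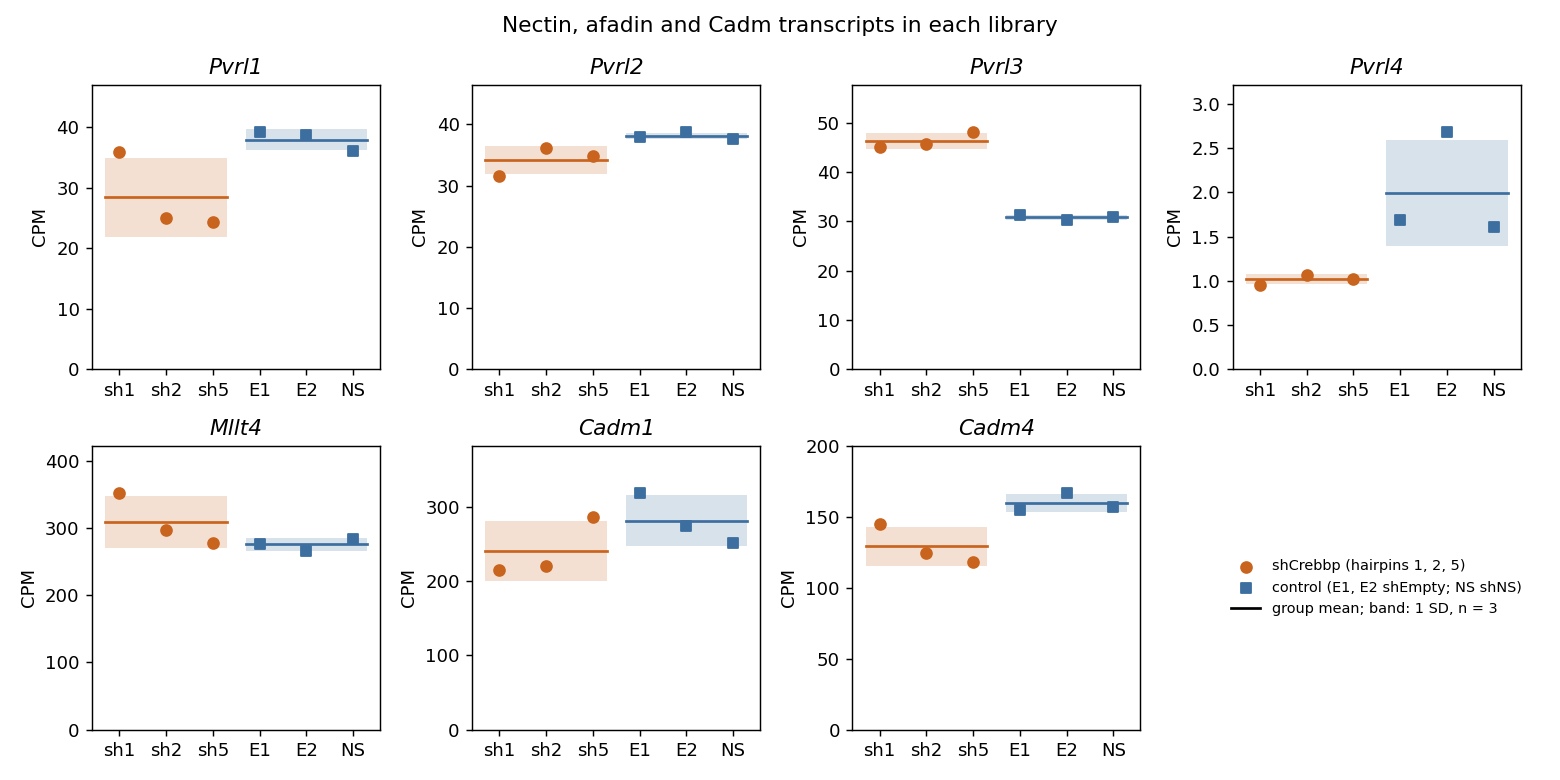
CPM (vertical axes, from 0) of each of the 7 genes in the 3 shCrebbp libraries (circles, hairpins 1, 2 and 5) and the 3 controls (squares; E1 and E2 are shEmpty, NS is shNS); lines are group means and bands 1 SD. Pvrl3 lies higher in all shCrebbp libraries, at 45.2 to 48.1 CPM against 30.4 to 31.4 CPM, and Pvrl1 lies apart from the controls with hairpins 2 and 5 but not with hairpin 1.

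Of the 7 genes 1 was called by edgeR, where 1.25% of all tested genes were called. It was called higher, as were 0.276% of all tested genes, and 0 of the 7 were called lower, against 0.978% of all tested genes. In 5 genes the 2 groups did not overlap, 1 above and 4 below the controls; over all tested genes this was seen in 11.4% above and 11.0% below (22.4% in all). The median log2 fold change of the 7 genes was -0.23, against 0.01 over all tested genes, and the median absolute log2 fold change was 0.31 against 0.14. Since this comparison was known when the genes were listed, nothing is read from these shares.

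The comparison between control vectors was not used in choosing the genes. The single shNS library was set against both shEmpty libraries in a model with 3 groups. The spread in this model comes from all 6 libraries, so it includes differences between hairpins, and is assumed to hold for shNS too. With that spread and a single shNS library, the model had little power to call a gene. The absence of calls given below therefore does not show that the control vectors are alike. Pvrl3 stood at 30.8 CPM in shNS and averaged 30.9 CPM in shEmpty, a log2 fold change of -0.003 ± 0.14 (SE; 95% interval -0.34 to 0.33). Cadm1 was 252 CPM in shNS and averaged 297 CPM in shEmpty, with a log2 fold change of -0.24 ± 0.21 that is as large as its difference between shCrebbp and control libraries. Pvrl4 had a log2 fold change of -0.44 ± 0.48, which was -0.74 without control replicate 1 and -0.07 without control replicate 2. That of Cadm1 was -0.13 and -0.34 without these libraries. The remaining 4 genes lay between -0.11 (Pvrl1) and 0.07 (Mllt4). No gene at all was called (0 of 13390, edgeR; 0% of all tested genes), and 100 had an unadjusted p under 0.05, of which 0 were among the 7. DESeq2 and limma-voom with and without quality weights also called 0, with 77, 362 and 121 genes at an unadjusted p under 0.05.

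**Figure D4:**
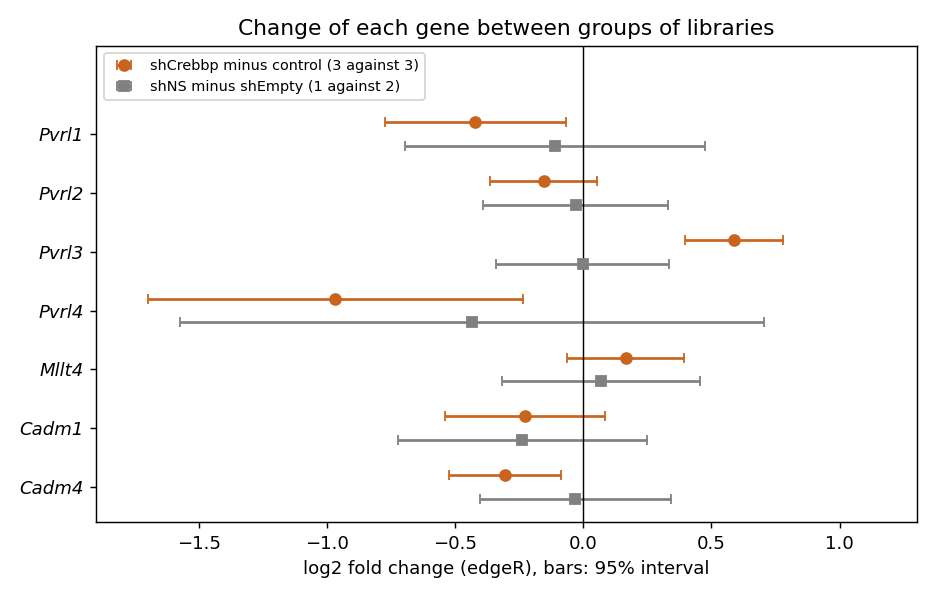
Log2 fold change (horizontal axis, with 95% intervals from edgeR) of each of the 7 genes for shCrebbp minus control (circles) and for shNS minus shEmpty (squares). The comparisons share the control libraries and shNS is 1 library; the Pvrl3 interval runs from 0.40 to 0.78 for shCrebbp minus control and from -0.34 to 0.33 for shNS minus shEmpty.

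Levels of different genes were compared per kilobase of transcript (RPKM), with the median length of the coding transcripts in GENCODE M21. Cadm1 had the highest level, at 135 ± 22.5 RPKM in shCrebbp libraries and 158 ± 19.2 RPKM in controls (SD, n = 3 each). Cadm4 followed at 59.8 ± 6.37 RPKM in shCrebbp libraries and 74.0 ± 2.94 RPKM in controls, then Mllt4 at 58.4 ± 7.28 and 52.1 ± 1.70 RPKM. Cadm4 and Mllt4 overlapped in shCrebbp libraries and were separate in controls. The nectins were lower, with Pvrl2 at 14.6 ± 0.997 RPKM in shCrebbp libraries and 16.2 ± 0.243 RPKM in controls, Pvrl1 at 9.41 ± 2.15 and 12.6 ± 0.559 RPKM, and Pvrl4 at 0.313 ± 0.0175 and 0.614 ± 0.185 RPKM. All neighbours in this order other than Cadm4 and Mllt4 were separate in both groups.

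The place of Pvrl3 in the order could not be fixed. Its 8 coding transcripts have a median length of 932 bases and a longest of 9116 bases. With the median length it stood at 49.7 ± 1.67 RPKM in shCrebbp libraries and 33.1 ± 0.542 RPKM in controls, above the other nectins, and with the longest transcript at 5.08 and 3.38 RPKM, near or below Pvrl1 (5.02 and 6.72 RPKM). With the longest transcripts Cadm4 also stood above Cadm1. Gene counts do not show which transcripts the cells use.

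Other genes of the same pathway did not pass in edgeR with the low-count filter and all 6 libraries. Among the nectin-like genes, Cadm2 stood at 52.1, 35.7 and 51.9 CPM with hairpins 1, 2 and 5, against 42.7, 34.5 and 33.1 CPM in control replicates 1, 2 and 3 (log2 fold change 0.34 ± 0.17 SE, edgeR adjusted p = 0.363). Cadm3 had no read in any library. Pvr, which encodes the poliovirus receptor homologue of the nectin-like family, had 4, 3 and 3 reads with hairpins 1, 2 and 5 and 0 reads in each control. It was below the filter and was not tested, and a count of 0 in a library does not exclude a low level.

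Of the 15 tested afadin and nectin junction partners, 0 were called higher and 0 lower, against 0.276% and 0.978% of all tested genes. With shares this low, 0 calls in a list this short says nothing about the list. In it 6 genes had positive and 9 negative fold changes (median log2 fold change -0.07). Lmo7, which encodes an afadin-binding LIM-domain protein, stood at 185 ± 25.9 CPM in shCrebbp libraries and 264 ± 6.87 CPM in controls (log2 fold change -0.52 ± 0.11 SE, edgeR adjusted p = 0.0680). It was called by DESeq2 (-0.52, adjusted p = 0.00111) and by limma-voom with quality weights (-0.44, adjusted p = 0.0202), which called 730 and 682 genes against 168 in edgeR. Lmo7 was also called in edgeR without a filter (-0.53, adjusted p = 0.0446) and without hairpin 5 (-0.62, adjusted p = 0.0359). It was not called in limma-voom without weights, or in edgeR without any 1 control or without hairpin 1 or 2. DESeq2 with 1 library left out called it except without control replicate 1. Rap1a, a small GTPase gene whose product binds afadin, stood at 56.2 ± 2.36 CPM in shCrebbp libraries and 48.0 ± 2.74 CPM in controls (log2 fold change 0.23 ± 0.09 SE, adjusted p = 0.245).

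Of the 11 tested genes of nectin signalling 0 were called in either direction, against 1.25% of all tested genes (7 positive, 4 negative, median log2 fold change 0.06). Src, the kinase activated by nectin contact, stood at 108 ± 12.2 CPM in shCrebbp libraries and 85.7 ± 3.31 CPM in controls (log2 fold change 0.33 ± 0.10 SE, edgeR adjusted p = 0.155). The integrin gene Itgb3 stood at 15.0 ± 0.875 and 19.4 ± 3.81 CPM (-0.37 ± 0.16, edgeR adjusted p = 0.301). Control replicates 1, 2 and 3 held 15.8, 19.0 and 23.4 CPM of Itgb3, and its shNS minus shEmpty log2 fold change was 0.43 ± 0.20 (SE). Of 8 tested genes for Cadm cytoplasmic partners 0 were called, against the same 1.25% (7 positive, 1 negative, median log2 fold change 0.15). Nothing is read from the counts of these 2 short lists. Mpp1, a membrane-associated guanylate kinase gene, stood at 27.8, 26.8 and 28.8 CPM in shCrebbp libraries and 21.0, 22.0 and 21.9 CPM in controls (0.36 ± 0.10, edgeR adjusted p = 0.119). The groups did not overlap in Mpp1, as in 22.4% of all tested genes. The band 4.1 gene Epb4.1l2 stood at 58.8 ± 6.76 CPM in shCrebbp libraries and 50.2 ± 3.21 CPM in controls (0.23 ± 0.11, adjusted p = 0.343). Epb4.1l3, the band 4.1 partner known for binding human CADM1, had 1 read in 1 library and none elsewhere. Receptors on immune cells that bind nectins or Cadm1 were at or near 0: Tigit had 5 to 10 reads in each library, and Cd226, Cd96 and Crtam together had 2 reads over all 6 libraries.

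Likeness over the 6 libraries was described by Pearson's r of log2 CPM among 10720 candidate genes. These r follow the group split where a member has one, and with so few libraries many genes reach high values: 84 genes had r above 0.95 with Pvrl3. The 3 nearest to Pvrl3 were Magee1 (r = 0.996), Zfp157 (r = 0.995) and Frs3 (r = 0.992). Magee1 was called higher by 0.64 on the log2 scale (edgeR adjusted p = 0.0194), whereas Frs3 at 0.45 (adjusted p = 0.165) and Zfp157 at 0.17 (adjusted p = 0.375) were not. For Pvrl1 the nearest was Hrh3 (r = 0.996), for Pvrl2 it was Chga (r = 0.997), for Pvrl4 Aldh16a1 (r = 0.978), for Mllt4 Smad2 (r = 0.995), for Cadm1 Hs2st1 (r = 0.994) and for Cadm4 Slc9a3r1 (r = 0.985).

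Promoter windows from RefSeq (GRCm38.p6, 250 bases before to 50 after an annotated start) were at hand for 5 of the 7 genes: Pvrl2, Pvrl3, Pvrl4, Mllt4 and Cadm4. CREB-binding protein is named for its binding to CREB, so the cAMP response element TGACGTCA was searched on both strands. It was in the Pvrl2 window, 40 bases after the start, and not in the other 4; 1.79% of 32851 windows of this length hold it. Its shorter core TGACG, which overlaps the whole element, was in the Pvrl2 and Cadm4 windows and in 20.8% of all windows. The E-box CACCTG was in the Pvrl2 and Cadm4 windows and in 20.2% of all windows. No TGANTCA was in any of the 5, against 7.81% of all windows. The Pvrl3 window held none of these letters and was rich in G and C (73.7%, above 94.9% of all windows). A match is a description of the letters and not a binding site. The sequences below show the 250 bases before the start of Pvrl3, the called gene (chr16:46496968-46497217, minus strand), and 30 bases of Pvrl2 around the response element, which is in capitals (chr7:19749524-19749553, minus strand), both 5′ to 3′.
Pvrl3: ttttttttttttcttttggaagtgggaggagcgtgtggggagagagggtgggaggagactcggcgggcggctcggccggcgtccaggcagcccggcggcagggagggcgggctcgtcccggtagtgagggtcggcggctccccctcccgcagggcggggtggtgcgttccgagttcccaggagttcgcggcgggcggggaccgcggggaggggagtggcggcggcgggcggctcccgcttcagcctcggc
Pvrl2: cgaagaggggcggggcctgTGACGTCAtga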

How the data were processed

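Each library has 1 deposited file of raw counts by gene symbol, not normalized or pooled by the authors. Named in the submitters' processing notes are HTSeq 0.6.1, TopHat2 2.0.12, bcl2fastq 1.8.2 and mm9. The sources used here do not give the annotation or the strand setting. From each file, the 5 HTSeq summary rows (24.8% to 28.9% of counts, mostly reads outside genes or aligned to several places) were left out. Within a group no 2 libraries agreed within sampling noise (chi-square over genes, divided by its degrees of freedom, of 4.08 to 28.4).

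The test was edgeR 4.0.16 in R 4.3.3 (TMM, filterByExpr, robust quasi-likelihood, group as the only term). Benjamini-Hochberg adjustment was over 13390 genes, with a threshold of 0.05. The fits were also run on simulated data with set fold changes, and nothing here rests on that run. CPM uses TMM-scaled library sizes, with a prior count of 2 on the log2 scale, and an SE is the fold change over the root of F. DESeq2 1.42.0 and limma 3.58.1 were alternatives. Older symbols were matched to current ones through RefSeq synonyms (7 of 7); transcript lengths come from GENCODE M21 (GRCm38), so no mm9 coordinates are given. The genes, the pathway lists and the rule for named genes (the 7 genes, called members of each pathway list or the 2 with the smallest p, and the 3 nearest genes by r) were chosen with earlier results of these data known. Of the pathway lists, Epb4.1l1 to Epb4.1l3 were matched by their older symbols after the files were read, and Pvrig was not found under that name. Of the neuroendocrine markers, 1 is not reported here and is left out of their sum.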

Additional observations from a re-analysis of the deposited data

How the results depend on the processing

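With all 6 libraries, the 168 genes called between shCrebbp and control libraries became 730 with DESeq2 and 682 with limma-voom using library quality weights, and 59.3% and 60.0% of these were lower against 78.0% in edgeR. The other 6 settings that used all 6 libraries gave 159 to 235. Leaving out 1 library in edgeR gave 0 to 389 genes over all tested genes and 0 to 3 of the 7 genes: 0 without any 1 control (0, 0 and 48 genes overall without control replicates 1, 2 and 3, with 1332, 1238 and 1788 at an unadjusted p under 0.05), and 3, 1 and 1 without hairpins 1, 2 and 5 (368, 101 and 389 genes overall). Limma-voom with quality weights called 3 of the 7 (Pvrl3, Pvrl1 and Cadm4), and DESeq2 without hairpin 1 also 3; DESeq2 without each other library called 1. Over all tested genes those DESeq2 fits called 252, 220 and 480 without control replicates 1, 2 and 3, and 878, 623 and 1085 without hairpins 1, 2 and 5. The direction of each of the 7 genes was kept in all 20 alternatives, which for the 5 genes whose groups do not overlap is no sign of stability. The log2 fold change ranged from 0.55 to 0.62 for Pvrl3, -0.63 to -0.33 for Pvrl1, -0.20 to -0.10 for Pvrl2, -1.14 to -0.70 for Pvrl4, 0.06 to 0.23 for Mllt4, -0.39 to -0.10 for Cadm1 and -0.40 to -0.25 for Cadm4. Between shNS and shEmpty the sign turned for Pvrl3 with upper quartile normalization (0.0094). With 1 library left out that value lay between -0.0274 (without control replicate 2) and 0.0199 (without control replicate 1), and that of Cadm4 between -0.0857 (without control replicate 1) and 0.0221 (without control replicate 2). In the pathway lists DESeq2 with a hairpin library left out, chosen after seeing the data, also called Ctnna1 lower, and Cadm2, Src and Epb4.1l1 higher, each in 1 of the 3 fits. Transcript length moved 11 of 14 RPKM means by more than 1 SD. Depth limits Pvrl4 and Pvr, with at most 44 and 4 reads in a library. No paired analysis was possible because the groups share fewer than 2 numbers in the labels, and the hairpin numbers name hairpins. The causes of these differences were not tested.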
